A study of Mus musculus with 8 samples.

Results

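The transcripts examined here are those of the lipases of the fat cell and of the beta-adrenergic pathway that controls them. The genes are Pnpla2, Lipe, Mgll, Abhd5, Adrb1, Adrb3, Pde3b, Prkar2b and Prkaca, 9 in all. Their probe sets were taken where the platform annotation named exactly 1 gene, which gave 17 of 45037 probe sets, for 7 of the 9 genes. Adrb1 and Adrb3, the receptors at the head of the pathway, have no expression values here, and of these only the upstream sequence of Adrb1 was examined. The 17 probe sets were divided into 15 bright enough to test and 2 dim ones, which are given by their signals only.

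Each of 8 male diabetic mice gave 1 Affymetrix mouse genome array of subcutaneous fat. The 4 NBC mice (numbers 5, 9, 11 and 13) were gavaged with niacin-bound chromium, a complex of chromium and nicotinic acid, in water at 10 mg per kg body weight. The 4 placebo mice (numbers 6, 8, 10 and 14) were gavaged with water alone. Both groups were labelled as 8 weeks old and were dosed on 5 days a week for 10 weeks. The strain and the basis of the diabetes, shared by both groups, are not stated in the labels.

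Stored triglyceride is broken down in steps. PNPLA2, also called ATGL, removes the first fatty acid and needs ABHD5 as its coactivator, LIPE (hormone-sensitive lipase) acts mainly on the diglyceride, and MGLL splits the last monoglyceride into glycerol and a fatty acid. Catecholamines start the process through beta-adrenergic receptors, cAMP and protein kinase A, whose catalytic subunit (PRKACA) is held inactive by regulatory subunits such as PRKAR2B, the main one of fat. Insulin opposes it through PDE3B, a phosphodiesterase that destroys cAMP, and nicotinic acid is known to restrain it through a receptor that lowers cAMP.

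All arrays had a mean signal of 1500 after 2% had been trimmed from each end. Fast skeletal muscle transcripts stood high in 3 NBC mice: the summed signal of 12 muscle markers, all 12 with a higher mean in NBC mice, was 166023, 177520 and 162090 in NBC mice 5, 11 and 13 and 19048 in NBC mouse 9, against 5825 to 24641 in placebo mice. The adipocyte markers Adipoq, Lep, Retn, Slc2a4, Pparg, Cebpa, Fabp4 and Lpl were all present as bright probe sets, with a summed signal of 485421 to 572886 in NBC mice and 484819 to 601558 in placebo mice, and 7 of these 8 had a lower mean in NBC mice (median log2 difference -0.077). Fibroblast markers had a higher mean in NBC mice in 9 of 9 cases, and their summed signals did not overlap, with 230138 to 276796 in NBC mice and 194884 to 215891 in placebo mice. Macrophage markers also had a higher mean in NBC mice in 9 of 9 cases, with overlapping sums of 149376 to 252833 in NBC and 111950 to 173639 in placebo mice. The log2 difference was below 0 for 6 of 6 lymphocyte markers, but their mean signals did not share 1 direction. Cd3d, Ms4a1 and Cd3e had a higher mean signal in NBC mice (116%, 109% and 105% of placebo), and Cd8a, Cd79a and Cd79b a lower one. The lymphocyte sums were 9667 and 6598 in NBC mice 5 and 9, above every placebo mouse, and 1188 and 1112 in NBC mice 11 and 13, below every placebo mouse, against 4106 to 6399 in placebo mice. None of these markers was at 0. The part of muscle, fibroblast, macrophage, lymphocyte and adipocyte content in the values below was not tested, and in whole fat fewer adipocytes and less RNA per adipocyte cannot be told apart.

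Upstream sequence is shown for Lipe, Prkar2b and Prkaca, because each had a probe set whose NBC signals all lay below the placebo signals and an upstream window with one of the marked motifs. Signals and motifs thus go together here by selection. Abhd5 also had such a probe set, but neither marked motif in its window. Mgll had both motifs in an upstream window, but its groups overlapped in every probe set. The other windows of Prkar2b and Prkaca held neither marked motif and are not shown. Each line gives the 250 bases before an annotated RefSeq start on build GRCm38.p6, read along the gene's strand. Capitals mark GTAAACA, a sequence of the forkhead type (read here on the other strand as TGTTTAC), and CACGTG, an E-box.
Lipe, chr7:25390113-25390362, minus strand: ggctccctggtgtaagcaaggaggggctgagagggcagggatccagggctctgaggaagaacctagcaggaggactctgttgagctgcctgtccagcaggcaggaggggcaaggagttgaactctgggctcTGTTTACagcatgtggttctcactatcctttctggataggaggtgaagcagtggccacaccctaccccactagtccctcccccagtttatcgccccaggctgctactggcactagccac
Lipe, chr7:25395988-25396237, minus strand: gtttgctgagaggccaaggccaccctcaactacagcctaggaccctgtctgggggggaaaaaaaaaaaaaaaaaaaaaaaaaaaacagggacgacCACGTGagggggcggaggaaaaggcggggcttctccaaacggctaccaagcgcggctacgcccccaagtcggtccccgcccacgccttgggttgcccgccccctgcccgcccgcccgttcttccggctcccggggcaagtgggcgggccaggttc
Prkar2b, chr12:32061278-32061527, minus strand: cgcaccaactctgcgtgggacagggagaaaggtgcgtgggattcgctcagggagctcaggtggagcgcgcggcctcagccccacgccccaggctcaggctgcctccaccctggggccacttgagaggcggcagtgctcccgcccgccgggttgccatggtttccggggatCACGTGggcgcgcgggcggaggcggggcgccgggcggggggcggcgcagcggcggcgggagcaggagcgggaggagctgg
Prkaca, chr8:83972728-83972977, plus strand: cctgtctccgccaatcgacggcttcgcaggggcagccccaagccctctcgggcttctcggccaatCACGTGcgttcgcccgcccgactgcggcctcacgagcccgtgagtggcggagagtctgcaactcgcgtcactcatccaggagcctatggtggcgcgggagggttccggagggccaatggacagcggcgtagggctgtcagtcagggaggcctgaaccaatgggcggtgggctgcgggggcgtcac

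The forkhead-type sequence of Lipe began 119 bases before the start, and the E-boxes began 155 bases (Lipe), 80 bases (Prkar2b) and 185 bases (Prkaca) before it. The RefSeq table used here was matched at 11 starts of 7 of the 9 genes (Pnpla2, Lipe, Mgll, Abhd5, Adrb1, Prkar2b and Prkaca), and both strands of each window were searched. CACGTG occurred in 4 of the 11 windows, those of Lipe, Mgll, Prkar2b and Prkaca, and in 6.02% of all 32851 windows of the same length. GTAAACA occurred in 2 (Lipe and Mgll) and in 3.17% of all windows. The full cAMP response element TGACGTCA occurred in 0 of the 11 and in 1.55% of all windows, while the shorter TGACG, which the full element contains, occurred in 3 (Abhd5, Adrb1 and Prkaca) and in 17.8% of all. These are matches of letters. Which of the starts gave the array signals is not known.

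The comparison of NBC with placebo mice asked whether the lipolysis transcripts differed after oral NBC. Most had slightly lower signals in NBC mice. Of the 15 probe sets tested, 14 had a log2 difference (NBC minus placebo) below 0, and the only one above 0 read Prkaca. The differences ranged from -0.51 (a Prkar2b probe set) to 0.085 (a Prkaca probe set), with a median of -0.18, against a median of -0.010 and 52.1% below 0 over all 22519 probe sets tested. The 13 lipolysis probe sets with a mean signal over 5000 had a median of -0.19, and all 4422 probe sets in that range had a median of -0.0044. The probe sets of 1 gene share their RNA and their target and are not independent of each other.

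In limma, with p-values adjusted by Benjamini-Hochberg over all probe sets, none of the 15 passed, and neither did any other probe set (0% of 22519, lowest adjusted p = 0.653). An unadjusted p under 0.05 was reached by 2 of 15, both lower in NBC mice, while 6.22% of all probe sets reached it (1400 probe sets) and 2.94% were lower in NBC mice. The 4 NBC signals lay entirely below the 4 placebo signals for 4 of the 15 probe sets, of Lipe, Abhd5, Prkar2b and Prkaca, while 3.85% of all probe sets had no overlap in either direction (2.06% lower in NBC mice). Bright probe sets parted more often: with a mean signal over 5000, 163 of 4422 lay entirely lower in NBC mice and 87 entirely higher. All 4 of these lipolysis probe sets were in that range, which held 13 of the 15. The count at an unadjusted p under 0.05 depended on the variance model and on single mice. It was 7 of 15 (background 6.55%) with a variance trend and robust moderation, 1 of 15 without NBC mouse 5 (background 5.21%), 11 (5.65%) or 13 (6.52%), and 0 of 15 without placebo mouse 8 (background 4.61%). Without placebo mouse 8, Prkar2b 1430640_a_at differed by -0.50 (limma unadjusted p = 0.05004) and Prkaca 1450519_a_at by -0.33 (limma unadjusted p = 0.0555). With all mice these differences were -0.51 and -0.32, so the count changed while they hardly did.

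Averaged over the 15 probe sets as log2 signal minus the placebo mean, NBC mice 5, 9, 11 and 13 stood at -0.13, -0.17, -0.13 and -0.33. Placebo mice 6, 8, 10 and 14 stood at 0.11, -0.026, -0.0080 and -0.078. The number of the 15 below their placebo mean was 12, 13, 11 and 15 in NBC mice 5, 9, 11 and 13, and 2, 9, 7 and 12 in placebo mice 6, 8, 10 and 14. By this count the groups overlapped, since placebo mouse 14 stood level with NBC mouse 5. The muscle marker sum of NBC mouse 9 (19048) lay within the placebo range (5825 to 24641), above all placebo mice but mouse 10. Its Eno3, Pvalb and Casq1 signals, named after they were seen, stood above every placebo mouse, and the other muscle markers did not.

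**Figure D1:**
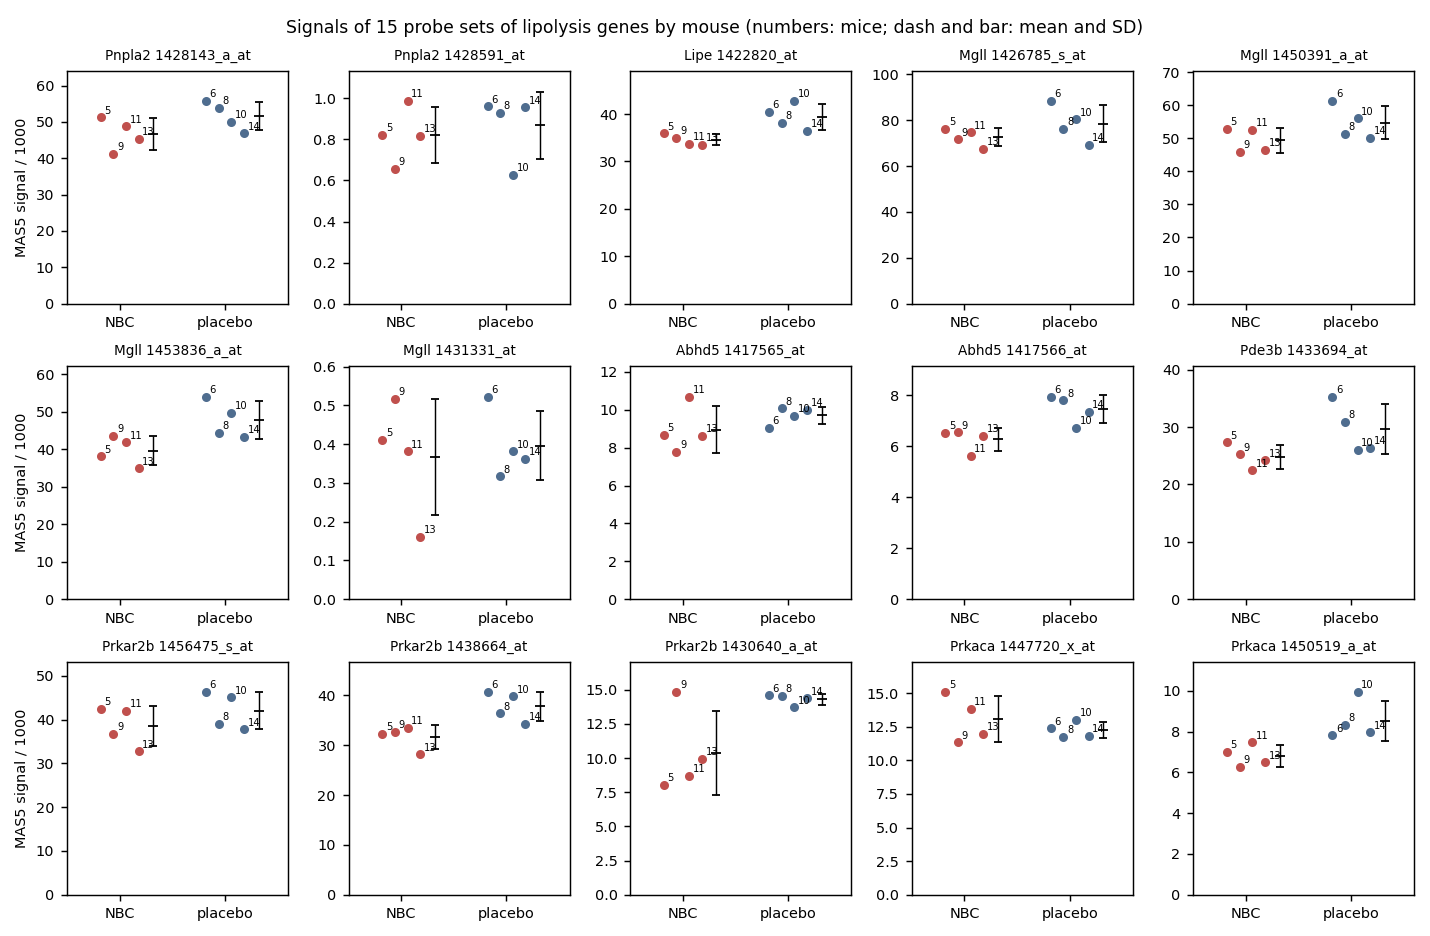
MAS5 signal divided by 1000 (vertical axes, each from 0) of the 15 tested lipolysis probe sets in 4 NBC and 4 placebo mice; points are mice with their numbers, and dashes with bars are means and SDs. Lipe 1422820_at, Abhd5 1417566_at, Prkar2b 1438664_at and Prkaca 1450519_a_at show no overlap, and in Prkar2b 1430640_a_at NBC mouse 9 stands with the placebo mice.

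Pnpla2, which makes the first cut in triglyceride, was read by the bright probe set 1428143_a_at at 51219, 41269, 48822 and 45299 in NBC mice 5, 9, 11 and 13, and at 55733, 53831, 50065 and 46824 in placebo mice 6, 8, 10 and 14. The groups overlapped, with NBC mice 9 and 13 below every placebo mouse and NBC mice 5 and 11 inside the placebo range. The means were 46652 ± 4335 in NBC and 51613 ± 3968 in placebo mice (SD, n = 4 each). The log2 difference was -0.15 (SE 0.12, 95% interval -0.42 to 0.12) with an adjusted p of 0.846 in limma, and it was -0.090 without NBC mouse 9. The second Pnpla2 probe set, 1428591_at, was much dimmer and read 657.5 to 987.0 in NBC mice and 626.3 to 960.5 in placebo mice. Its difference was -0.072 (SE 0.18) and changed sign to 0.027 without NBC mouse 9.

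Abhd5, the coactivator of PNPLA2, had probe sets that differed in how far the groups parted. The dimmer of its tested probe sets, 1417566_at, read 6524, 6550, 5622 and 6407 in NBC mice 5, 9, 11 and 13, and 7958, 7807, 6737 and 7363 in placebo mice 6, 8, 10 and 14. All NBC signals lay below all placebo signals, though NBC mouse 9 and placebo mouse 10 were close. The log2 difference was -0.25 (SE 0.11, limma unadjusted p = 0.055, adjusted p = 0.778), and the NBC mean was 84.1% of the placebo mean. In 1417565_at NBC mouse 11 was the highest of all 8 mice (10702), the other NBC mice read 7784 to 8687 and the placebo mice 9048 to 10079. The difference there was -0.13 (SE 0.13) with overlap, and it depended on single mice, at -0.061 without NBC mouse 9 and -0.21 without NBC mouse 11. The remaining probe set, 1447548_at, was dim, at 64.0 to 111.9 in NBC mice and 24.4 to 201.7 in placebo mice.

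Lipe, the hormone-sensitive lipase and a target of protein kinase A, was the member gene whose brightest probe set had no overlap. Probe set 1422820_at read 35969, 35016, 33727 and 33528 in NBC mice 5, 9, 11 and 13, and 40421, 38104, 42740 and 36449 in placebo mice 6, 8, 10 and 14. The NBC mice lay close together and all below the placebo mice, with a narrow gap between NBC mouse 5 and placebo mouse 14. The NBC mean of 34560 ± 1148 was 87.7% of the placebo mean of 39428 ± 2744 (SD, n = 4 each). The log2 difference was -0.19 (SE 0.11, 95% interval -0.43 to 0.050). Limma gave an unadjusted p of 0.108 and an adjusted p of 0.799. NBC mouse 9 was below every placebo mouse here too. The other Lipe probe set, 1432180_at, was dim and uneven, with 22.1 and 8.9 in NBC mice 5 and 11, 217.8 and 221.6 in NBC mice 9 and 13, and 109.4 to 221.8 in placebo mice.

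Mgll, which completes the breakdown, was read by 3 bright probe sets and a much dimmer one that was still tested, all with lower NBC means and all with overlap. The brightest, 1426785_s_at, read 76282, 71641, 74802 and 67633 in NBC mice 5, 9, 11 and 13, and 88370, 76199, 80444 and 69256 in placebo mice 6, 8, 10 and 14. Its log2 difference was -0.11 (SE 0.12), which became -0.052 without placebo mouse 6 and -0.17 without placebo mouse 14. Probe set 1453836_a_at differed most, with 34876 to 43654 in NBC mice and 43289 to 54053 in placebo mice, a log2 difference of -0.27 (SE 0.13, limma unadjusted p = 0.062, adjusted p = 0.778), and the overlap there came from NBC mouse 9 and placebo mouse 14. Probe set 1450391_a_at lay between them at -0.15 (SE 0.12), and at -0.090 without placebo mouse 6. The dimmer probe set 1431331_at differed by -0.18 (SE 0.31), and NBC mouse 13, at 160.2, set that value: without it the difference was 0.14.

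**Figure D2:**
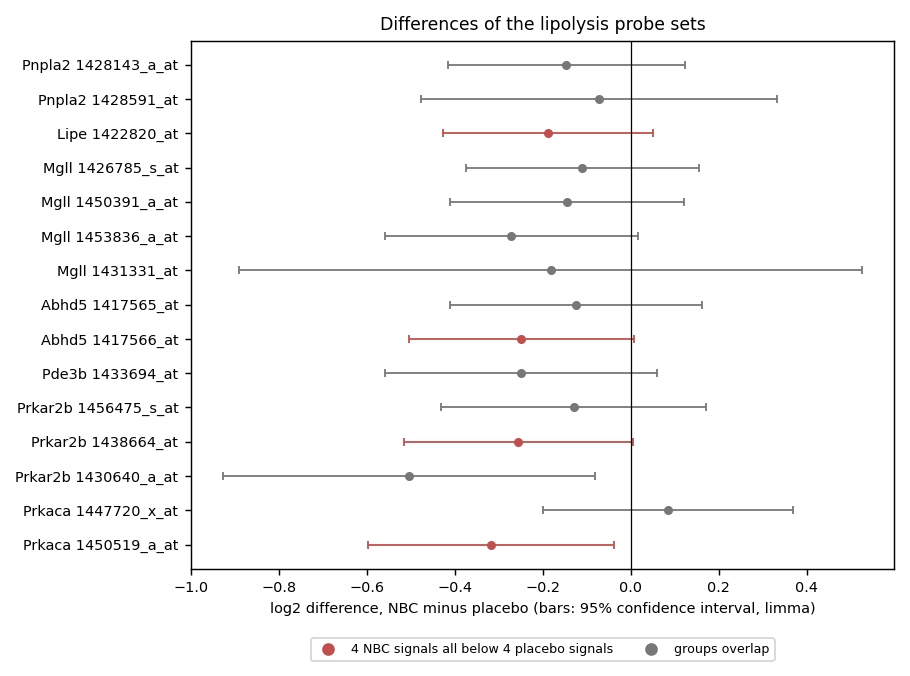
Log2 difference, NBC minus placebo (horizontal axis), of the 15 tested lipolysis probe sets with 95% confidence intervals from limma; red marks probe sets whose 4 NBC signals all lie below the 4 placebo signals. Of the 15 points 14 lie below 0, and the intervals of Prkar2b 1430640_a_at and Prkaca 1450519_a_at end below 0.

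Pde3b, the insulin-controlled phosphodiesterase that removes cAMP, had a single probe set, 1433694_at. It read 27353, 25240, 22470 and 24217 in NBC mice 5, 9, 11 and 13, and 35327, 30929, 26034 and 26428 in placebo mice 6, 8, 10 and 14. NBC mice 9, 11 and 13 lay below every placebo mouse, and NBC mouse 5 lay within the placebo range. The NBC mean was 83.6% of the placebo mean, a log2 difference of -0.25 (SE 0.14, limma unadjusted p = 0.100, adjusted p = 0.789), and without placebo mouse 6 it was -0.16.

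Prkar2b, the regulatory subunit of protein kinase A that predominates in fat, was read by 3 bright probe sets, which differed in pattern. Probe set 1438664_at read 32224, 32640, 33495 and 28189 in NBC mice 5, 9, 11 and 13, and 40649, 36391, 39826 and 34320 in placebo mice 6, 8, 10 and 14. Every NBC signal was below every placebo signal, and the log2 difference was -0.26 (SE 0.12, limma unadjusted p = 0.053, adjusted p = 0.778). The brightest, 1456475_s_at, read 32812 to 42493 in NBC mice and 37835 to 46308 in placebo mice, with a difference of -0.13 (SE 0.13). That value was -0.055 without NBC mouse 13 and -0.082 without placebo mouse 6.

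The third Prkar2b probe set, 1430640_a_at, had the largest difference of the 15. It read 8024, 8685 and 9920 in NBC mice 5, 11 and 13 and 14821 in NBC mouse 9, against 14582, 14530, 13713 and 14359 in placebo mice 6, 8, 10 and 14. NBC mouse 9 was the highest of all 8 mice, while the other 3 NBC mice lay far below the tight placebo group. The log2 difference was -0.51 (SE 0.19, limma unadjusted p = 0.024, adjusted p = 0.776), -0.69 without NBC mouse 9, and 0.052 for NBC mouse 9 alone against the placebo mice. The 3 low mice were those with high muscle transcripts. They also had the highest Gapdh 3' to 5' signal ratios, a measure of RNA integrity, at 1.47, 1.28 and 1.11 in NBC mice 5, 11 and 13 and 0.84 in NBC mouse 9, against 0.92 to 1.04 in placebo mice. The beta-actin 3' to 5' ratio followed this only in part, at 2.10, 1.82 and 1.56 in NBC mice 5, 11 and 13 and 1.51 in NBC mouse 9, against 1.51 to 1.74 in placebo mice, so that NBC mouse 13 lay within the placebo range. The part of either in this result was not tested. For 1438664_at the difference of NBC mouse 9 from the placebo mean was -0.21, and those of NBC mice 5, 11 and 13 were -0.23, -0.17 and -0.42. Averaged over its 3 probe sets, Prkar2b differed by -0.30 (SE 0.11, limma unadjusted p = 0.021), against -0.13 by its brightest probe set alone. That p is from a separate fit on gene means and is not adjusted. No other lipolysis gene had an unadjusted p under 0.05 in that fit, the next lowest being 0.070 for Abhd5. The average includes 1430640_a_at, where NBC mouse 9 stood apart from the other NBC mice.

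Prkaca, the catalytic subunit, had probe sets with differences of opposite sign. Probe set 1450519_a_at read 6997, 6258, 7466 and 6485 in NBC mice 5, 9, 11 and 13, and 7817, 8319, 9931 and 7959 in placebo mice 6, 8, 10 and 14, without overlap. The NBC mean was 80.0% of the placebo mean, a log2 difference of -0.32 (SE 0.12, 95% interval -0.60 to -0.038, limma unadjusted p = 0.030, adjusted p = 0.778). The brighter 1447720_x_at, of a class that can cross-hybridise with other transcripts, read 15077, 11342, 13851 and 11979 in NBC mice 5, 9, 11 and 13 and 11732 to 13037 in placebo mice. NBC mice 5 and 11 were above every placebo mouse and NBC mouse 9 was below them, and the difference was 0.085 (SE 0.13), or 0.013 without NBC mouse 5, 0.054 without NBC mouse 11 and 0.15 without NBC mouse 9. Averaged over these probe sets, Prkaca differed by -0.12 (SE 0.11).

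Whether the probe sets of 1 gene differed from each other in response was tested for the 12 pairs of tested probe sets, a test added after the values were seen. The log2 ratio of 1450519_a_at to 1447720_x_at was -0.93 ± 0.12 in NBC and -0.53 ± 0.11 in placebo mice (SD, n = 4 each), a difference of -0.40 with no overlap. Its two-sided exact permutation p was 0.0286, the smallest that 4 against 4 allows, and 0.343 after Benjamini-Hochberg adjustment over the 12 pairs. A lone pair at that smallest p can reach no lower adjusted value, so the adjusted p cannot decide whether this pair differed. The exact permutation p was 0.286 for Prkar2b 1430640_a_at against 1456475_s_at and 0.314 against 1438664_at (adjusted p = 0.629 for each). The other pairs had an exact permutation p of 0.0571 or more.

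**Figure D3:**
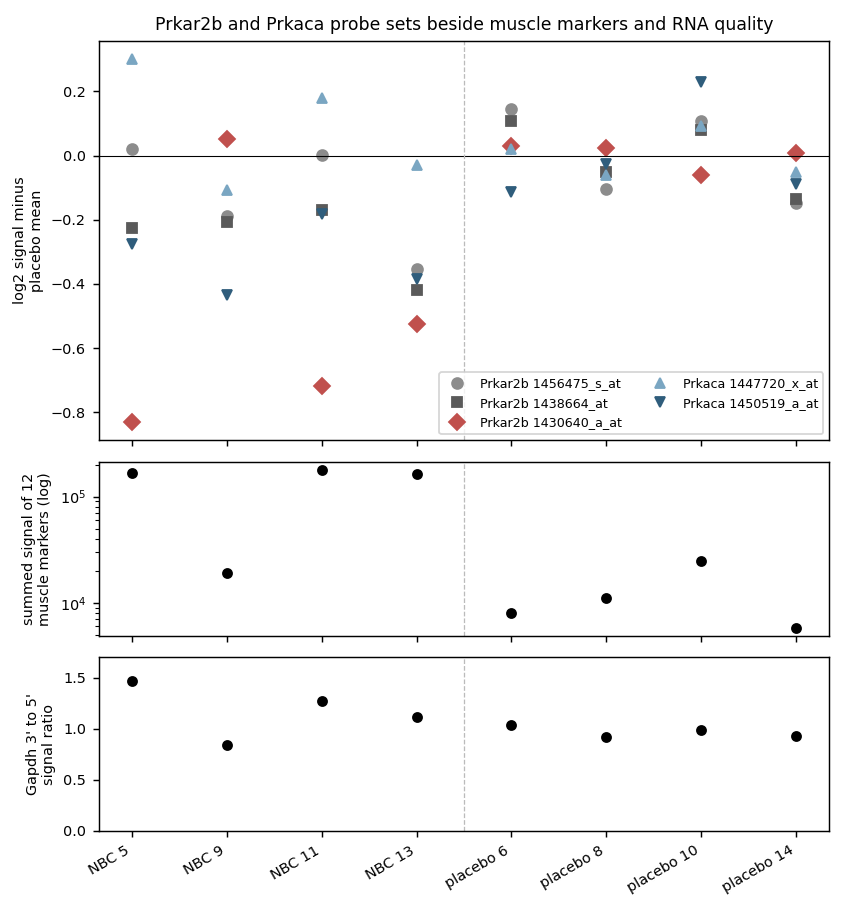
Top, log2 signal minus the placebo mean for 3 Prkar2b and 2 Prkaca probe sets in each mouse; middle, summed signal of 12 muscle markers on a log axis; bottom, the Gapdh 3' to 5' signal ratio. Prkar2b 1430640_a_at is low in NBC mice 5, 11 and 13, where the muscle sum is 162090 or more, and not in NBC mouse 9, and the Prkaca probe sets part in all 4 NBC mice.

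The brightest probe sets of the 7 genes moved with each other to different degrees over the 8 arrays. The highest Pearson correlation of log2 signals was that of Mgll with Prkar2b (r = 0.90), and Pnpla2 with Mgll (r = 0.77) and Lipe with Mgll (r = 0.75) followed. Abhd5 with Pde3b (r = -0.057) and Pde3b with Prkaca (r = -0.17) were the lowest. These values describe 8 arrays that share 1 scaling and hold both groups. Among 11661 other genes the most alike by Pearson r over the 8 arrays were Rnf25 (r = 0.96, Spearman rho = 0.98) and Cavin2 (r = 0.94, rho = 0.95), a caveola component, for Pnpla2. For Lipe they were Ropn1l (r = 0.96, rho = 1) and Rnf10 (r = 0.96, rho = 0.93), and for Prkar2b they were Apol6 (r = 0.99, rho = 0.93) and Emc9 (r = 0.97, rho = 0.98). The third genes for Pnpla2, Lipe and Prkar2b, in that order, were Strbp (r = 0.93, rho = 0.93), Zfp975 (r = 0.95, rho = 0.93) and Zc2hc1a (r = 0.97, rho = 0.98). These genes were picked as the highest of many over 8 arrays, so the values are a description only.

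Around these genes, 7 lists of the pathway held 92 genes, of which 76 had a bright enough probe set. In limma 0 of the 76 passed the adjusted threshold, 3 passed an unadjusted p under 0.05, all lower in NBC mice, and 0 had groups without overlap. Over all 11662 genes, by their brightest probe set, 2.71% passed in that direction and 2.73% in the other, 3.93% had no overlap, and the median was -0.0064. Counted in the same way, 6 of the 7 lipolysis genes lay below 0, against 51.5% of all genes, with a median of -0.13. In limma 0 of these 7 passed an unadjusted p under 0.05, and 1 (Lipe) had groups without overlap.

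The signalling genes upstream of the kinase were mixed. Of 16 receptor, G protein and adenylyl cyclase genes, 10 lay below 0 (median log2 difference -0.035). Gnas, which encodes the stimulatory G protein, read 40218 to 49637 in NBC and 45491 to 53034 in placebo mice (-0.17, SE 0.12), and the cyclase Adcy6 differed by -0.17 (SE 0.13). Hcar2, whose product binds niacin, read 743.5 ± 205 in NBC and 545.9 ± 280 in placebo mice (SD, n = 4 each; 0.53, SE 0.37), and Rgs2, a brake on G protein signalling, differed by 0.44 (SE 0.24). Of 14 other kinase A subunits, inhibitors and anchors, 9 lay below 0 (median -0.13). The mitochondrial anchor Akap1 differed by -0.29 (SE 0.13, limma unadjusted p = 0.053), Akap7 by -0.21 (SE 0.14), Akap10 by -0.23 (SE 0.15) and the kinase inhibitor Pkia by -0.33 (SE 0.23).

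Of 11 other phosphodiesterases 9 lay below 0 (median -0.063), with Pde1a at -0.19 (SE 0.15), Pde7b at -0.17 (SE 0.14), Pde4b at -0.18 (SE 0.21) and Pde2a at 0.17 (SE 0.14). In the natriuretic peptide arm, a second route to lipolysis in human fat, 3 of 5 lay below 0 (median -0.044). The clearance receptor Npr3 read 48238 to 61897 in NBC and 57139 to 69171 in placebo mice (-0.22, SE 0.13). The kinases Prkg2 and Prkg1 differed by 0.43 (SE 0.31) and 0.13 (SE 0.15), and the receptor Npr2 by -0.098 (SE 0.15).

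Of 16 partners, inhibitors and other lipases 11 lay below 0, with a median of -0.021. The PNPLA2 inhibitors differed in sign, with Hilpda at 0.31 (SE 0.20) and G0s2, given after its value was seen, at -0.13 (SE 0.14). The droplet protein Plin5 differed by 0.26 (SE 0.19), the carboxylesterase Ces1f by -0.49 (SE 0.32) and the monoglyceride hydrolase Abhd6 by -0.25 (SE 0.17). Of 6 genes for glycerol and fatty acid handling 5 lay below 0 (median -0.24). Pck1, the enzyme of glyceroneogenesis, which returns fatty acids to triglyceride, read 10708, 11759, 7289 and 8626 in NBC mice 5, 9, 11 and 13, and 17035, 22170, 11553 and 16686 in placebo mice 6, 8, 10 and 14. NBC mouse 9 lay just above placebo mouse 10, and the other NBC mice lay below every placebo mouse (-0.80, SE 0.22, limma unadjusted p = 0.0059, adjusted p = 0.718). The fatty acid transport protein Slc27a1 differed by -0.37 (SE 0.16, limma unadjusted p = 0.0498, adjusted p = 0.778), the glycerol channel Aqp7 by -0.48 (SE 0.25) and the fatty acid receptor Cd36 by -0.12 (SE 0.13).

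Transcripts known to respond to cAMP did not share 1 direction. Of 8 measured, 3 lay below 0 and 5 above, with a median of 0.11. The uncoupling protein Ucp1 read 837.6, 1199, 796.0 and 2078 in NBC mice 5, 9, 11 and 13, and 3819, 3754, 1408 and 4061 in placebo mice 6, 8, 10 and 14 (-1.39, SE 0.40, limma unadjusted p = 0.0073, adjusted p = 0.730), and the coactivator Ppargc1a differed by -0.35 (SE 0.18). Summed signals of the brown adipocyte markers, a list that holds Ucp1, were 5372 to 8722 in NBC and 5867 to 10383 in placebo mice, and 4 of 6 lay below 0. Among them Cidea, a lipid droplet protein of brown fat named after its values were seen, read 675.2 to 874.7 in NBC and 1188 to 2099 in placebo mice without overlap (-0.996, SE 0.18, limma unadjusted p = 0.00037, adjusted p = 0.653). The remaining brown adipocyte markers, also named after their values were seen, differed less and in both directions. Ppara (-0.16, SE 0.23) and Cox7a1 (-0.093, SE 0.24) lay below 0, and Prdm16 (0.30, SE 0.22) and Elovl3 (0.16, SE 0.55) above 0. The clock gene Per1 (0.27, SE 0.12) and the AP-1 gene Fosl2 (0.27, SE 0.15) had higher means in NBC mice.

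**Figure D4:**
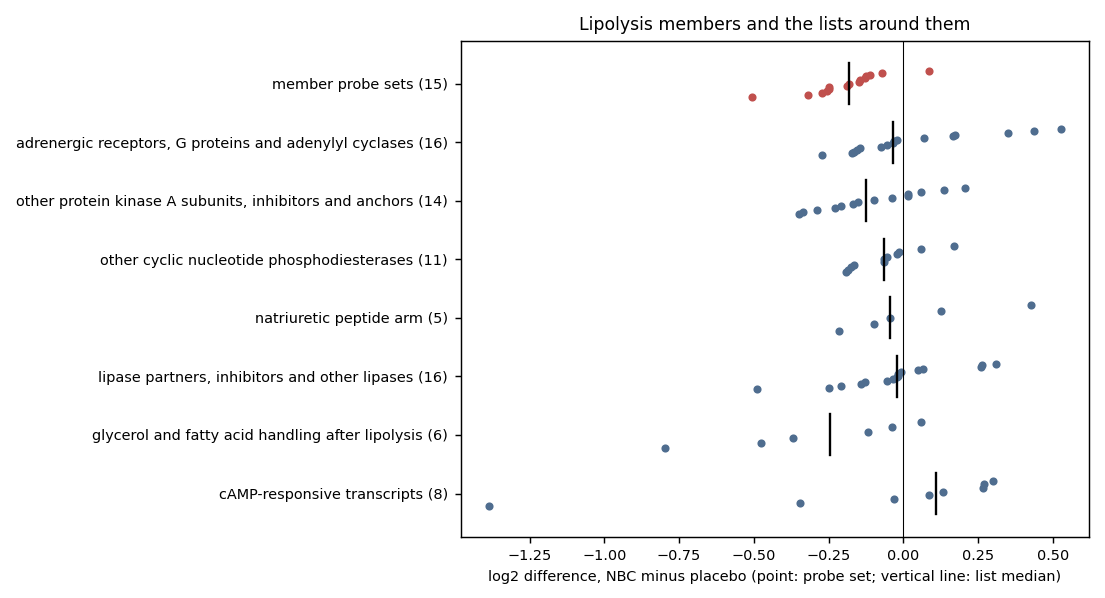
Log2 difference, NBC minus placebo (horizontal axis), for the 15 lipolysis probe sets (red) and for the genes of 7 pathway lists (blue, brightest probe set of each gene, number in parentheses); vertical lines are medians. The medians are -0.18 for the lipolysis probe sets, -0.24 for glycerol and fatty acid handling and 0.11 for cAMP-responsive transcripts. The red points hold several probe sets of some genes. Taken by the brightest probe set of each gene, like the lists, the 7 lipolysis genes have a median of -0.13 (not drawn).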

How the data were processed

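The deposited table holds linear signal intensities, 1 for each probe set on each array. The authors made them with MAS5, per the submitters' processing notes, in which no version appears. MAS5 sets perfect-match probes against mismatch partners, which leaves dim transcripts noisy. No further scaling was applied. Sample titles gave the groups and the mouse numbers, and each array is from its own mouse per the labels. Scan date, slide and litter are not stated there, and no batch was fitted. Of 45101 probe sets 64 controls were left out, and 34945 named 1 gene in the platform annotation.

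A pseudocount of 26, near the 10th percentile of the signals, was added before log2 was taken, which understates differences of dim transcripts. The 22519 probe sets with a mean log2 value at or above the median (a signal of 275) were fitted with limma 3.58.1 (lmFit, eBayes, no covariate) in R 4.3.3 and adjusted by Benjamini-Hochberg over all of them. The fit was tested on simulated data. The number of arrays limits the precision. A gene other than the 9 was represented by its brightest probe set. Named genes were all probe sets of the 9 genes, up to 4 genes of smallest p from each list, and the 3 genes most alike to Pnpla2, Lipe and Prkar2b. The genes, lists and tests were chosen with earlier results of these data known. Upstream sequences are RefSeq's, build GRCm38.p6, matched by symbol. Alternatives were other pseudocounts, no filter, quantile normalization, a variance trend with robust moderation, array weights, each mouse left out, and gene means over probe sets.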

Additional observations from a re-analysis of the deposited data

Results flagged for a closer look

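Over 34 groups of 4 signals (17 probe sets in 2 groups), 2 held a sample far from the others, by Dixon's criterion on the gap to the nearest sample over the group's range, and chance alone marks about 1 group in 20. Pnpla2 1428591_at read 626.3 in placebo mouse 10, where the other placebo mice read 929.2 to 960.5 (gap 0.906 of the range). Abhd5 1417566_at read 5622 in NBC mouse 11, where the other NBC mice read 6407 to 6550 (gap 0.846 of the range). The cause of either was not tested.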

How the results depend on the processing

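No paired analysis was made because the labels state no pairing of NBC with placebo mice. The 15 tested lipolysis probe sets were recomputed under 15 alternatives, of which 1, without NBC mice 5, 11 and 13 together, was chosen after seeing the data and assumes that the lone NBC mouse varies like the placebo mice. Of these 225 values 220 kept their direction, and none passed the adjusted threshold. The 5 that turned were Mgll 1431331_at without NBC mouse 13 (0.14) and for NBC mouse 9 alone (0.38), Pnpla2 1428591_at without NBC mouse 9 (0.027), and for NBC mouse 9 alone Prkaca 1447720_x_at (-0.11) and Prkar2b 1430640_a_at (0.052). With 1 mouse left out Mgll 1431331_at ranged from -0.37 to 0.14 and Pnpla2 1428591_at from -0.22 to 0.027. As means over the probe sets of a gene Prkaca also turned (-0.12) and Prkar2b was -0.30, against -0.13 by its brightest probe set. The median of the 15 ranged from -0.21 to -0.13 with 1 mouse left out.

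The count of lipolysis probe sets at an unadjusted p under 0.05 (2 of 15) was 1 without the filter (5.32% of all probe sets), 4 with quantile normalization (6.54%), 7 with a variance trend and robust moderation (6.55%), 0 to 3 with 1 mouse left out (4.61% to 11.4%) and 0 for NBC mouse 9 alone (7.73%). The count without overlap (4 of 15) was 4 to 6 with 1 mouse left out (5.62% to 11.8% of all probe sets) and 11 for NBC mouse 9 alone, where 45.8% of all probe sets had none. Over all probe sets, the count at an unadjusted p under 0.05 (1400) was 2396 without the filter, which tests more probe sets, 2126 with array weights and 1039 to 2556 with 1 mouse left out. The adjusted count was 0 to 19 with 1 mouse left out, the 19 without NBC mouse 9 and none of them a lipolysis probe set. The causes were not tested. Adjusted values of the dim Lipe and Abhd5 probe sets exist only without the filter.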
